A study of Mus musculus with 4 samples.

Results

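The myeloid granule and surface genes described here are Mpo, Ctsg, Ltf, Camp, Ngp, Csf1r, Csf3r, Itgam and Cd14. They were taken by name, through every probe that is not a control and that the array annotation assigns to 1 of these 9 gene symbols. This gave 232 of the 520554 probes of the array. Of these, 155 passed the probe filter, and the 9 genes are among 17034 genes with at least 3 such probes. Methylated DNA was immunoprecipitated from mouse leukemic cells (MeDIP) and hybridised, labelled with Cy3, together with Cy5-labelled input DNA on a promoter array, 1 array for each of 4 groups. The groups were untreated wild-type cells (WT), untreated KO cells, WT cells given decitabine, and KO cells given decitabine; the drug was given at 20 nM, once per 24 h over 3 days, with harvest at 72 h in each group. All cells were grown with interleukin-6, interleukin-3 and stem cell factor. The source names tie the KO to Mll5, whereas the genotype field reads HOXA9 KO and the cell line field reads MII5. The deleted gene is therefore given here only as these labels have it. The labels name neither a promoter nor a Cre driver for the deletion, nor whether a sample came from 1 clone or from pooled animals. With 1 array a group no difference between groups has a replicate check. The arrays average over all cells of a sample, so a change within cells and a change in the mix of cells cannot be told apart.

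The products of these genes arm and equip phagocytes. Primary (azurophil) granules are filled early in neutrophil differentiation and carry enzymes such as myeloperoxidase and cathepsin G, while secondary (specific) granules are filled later and carry lactoferrin and the cathelicidin peptide. Growth factor receptors and adhesion or pattern recognition molecules stand at the cell surface. Decitabine, a nucleoside drug built into DNA in place of cytidine, binds and depletes the enzymes that methylate DNA. MeDIP pulls down DNA in proportion to its methylated CpG, so a fragment with few CpG gives little signal.

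In mm9 with the GENCODE vM1 annotation, Mpo lies at chr11:87607083-87617915 and Ctsg at chr14:56718718-56721411. Camp (chr9:109749889-109751970), Ngp (chr9:110322254-110325514) and Ltf (chr9:110921796-110945270) share a stretch of chromosome 9. Csf3r lies at chr4:125701794-125722219 and Itgam at chr7:135206154-135271674. Nearly all of this DNA is poor in CpG. All kept probes of 7 genes sat in windows of 500 bases with an observed-to-expected CpG ratio under 0.48, as did 94.1% of those of Camp and 72.2% of those of Cd14. The coding exon of Cd14 holds the densest window, with up to 37 CpG around a kept probe. Of the 232 probes, 119 lay upstream of the gene start, 64 in introns, 35 in coding exons, 13 in UTRs and 1 downstream. RefSeq promoter entries (from a GRCm38.p6 table, each found once in mm9 by exact match) were matched for 7 of the 9 genes. The 250 bases before the RefSeq start held 2 CpG at Camp and Mpo, 3 at Ngp, 4 at Ltf, 6 at Csf3r and Itgam, and 7 at Ctsg, against a median of 6 over 32851 promoters, of which 29.0% held 2 or fewer and 57.0% held 7 or fewer. The promoters of Camp, Ltf and Ctsg are shown 5′ to 3′ because they span this range, in mm9 coordinates, with each CpG in capitals.
Camp promoter, chr9:109751971-109752220, reverse strand: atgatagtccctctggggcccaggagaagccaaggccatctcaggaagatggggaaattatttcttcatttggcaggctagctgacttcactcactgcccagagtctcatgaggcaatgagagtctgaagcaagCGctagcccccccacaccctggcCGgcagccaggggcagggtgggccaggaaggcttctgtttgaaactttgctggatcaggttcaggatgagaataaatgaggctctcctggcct
Ltf promoter, chr9:110921546-110921795, forward strand: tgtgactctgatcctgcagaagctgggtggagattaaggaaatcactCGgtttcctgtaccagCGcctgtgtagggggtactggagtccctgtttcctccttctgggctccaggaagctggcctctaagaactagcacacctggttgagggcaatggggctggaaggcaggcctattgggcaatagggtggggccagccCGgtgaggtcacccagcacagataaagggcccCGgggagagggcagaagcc
Ctsg promoter, chr14:56721412-56721661, reverse strand: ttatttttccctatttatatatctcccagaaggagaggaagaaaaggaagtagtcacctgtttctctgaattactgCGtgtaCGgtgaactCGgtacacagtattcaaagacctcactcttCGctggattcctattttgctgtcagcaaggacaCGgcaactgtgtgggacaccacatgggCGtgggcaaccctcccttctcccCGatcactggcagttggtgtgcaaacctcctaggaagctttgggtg

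A probe is called bright here where its MeDIP signal was well above background by the scanner software. Of the 155 kept probes 6 were bright on all 4 arrays (3.87%, beside 2.65% of all kept probes), 1 each in Mpo, Itgam, Csf3r and Csf1r and a pair upstream of Ctsg, and 126 were bright on none (81.3%, beside 81.2%). The MeDIP signal of the 6 was measured on both sides of every comparison. Sequences are shown for 5 of them, and a Camp probe is added because it had the highest mean ratio among the kept probes of that gene. Positions are in bases from the gene start, negative upstream, and CpG are again in capitals.
Mpo +1800, coding exon, chr11:87608859-87608908, forward strand: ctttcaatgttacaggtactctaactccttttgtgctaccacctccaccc
Ctsg -3084, upstream, chr14:56724469-56724521, forward strand: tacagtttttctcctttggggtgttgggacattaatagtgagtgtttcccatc
Ctsg -1806, upstream, chr14:56723195-56723239, forward strand: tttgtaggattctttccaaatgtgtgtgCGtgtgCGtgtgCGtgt
Itgam +378, intron, chr7:135206504-135206560, forward strand: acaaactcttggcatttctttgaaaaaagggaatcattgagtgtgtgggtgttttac
Csf3r +1990, intron, chr4:125703756-125703812, forward strand: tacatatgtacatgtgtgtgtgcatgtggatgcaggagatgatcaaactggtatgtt
Camp -1947, upstream, chr9:109753889-109753945, forward strand: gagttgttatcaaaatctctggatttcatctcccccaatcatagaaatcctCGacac
Among the 6 always-bright probes 5 held no CpG of their own, the exception being Ctsg -1806, and 4 of the 6 (Csf1r +1276, Csf3r +1990, Ctsg -1806 and Itgam +378) held the letters GTGTGT or their reverse complement ACACAC. This motif was chosen after the sequences had been seen and was searched on both strands. It was held by 13 of the 155 kept member probes (8.39%), 4.03% of all 328399 kept probes and 20.0% of the 8687 probes bright on all 4 arrays. The input signal of the 6 probes was also high, with medians of 4.42, 4.81, 4.89 and 5.16 above the array median on the log2 scale (in the order used throughout: the untreated WT and KO arrays, then the WT and KO arrays with decitabine). The part of repeat sequence and input abundance in their MeDIP signal was not tested.

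Levels are log2 ratios of MeDIP over input, relative to the median of the array and averaged over the kept probes of a gene. The SD given with a level is over the probes of that gene, which share the same DNA, and is not an error between samples. Over the 9 genes the median level was -0.79 on the untreated WT array, -0.49 on the untreated KO array, -0.42 on the decitabine WT array and -0.25 on the decitabine KO array, beside -0.71, -0.63, -0.47 and -0.46 over all genes and -0.56, -0.52, -0.39 and -0.44 over the 7747 genes whose kept probes are at least 80% in CpG-poor windows. The ranges of the 9 genes overlapped between all groups: they ran from -0.94 to -0.37, from -0.81 to -0.28, from -0.70 to 0.12 and from -0.54 to 0.03. In every gene the SD ranges of the 4 arrays overlapped, as the plot of levels shows. The directions given gene by gene below are on this median-centred scale. Probes named there as bright or as of highest mean ratio are kept probes unless said otherwise. Centred on bright probes instead, each of the 9 genes was lower with decitabine in both genotypes.

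**Figure D1:**
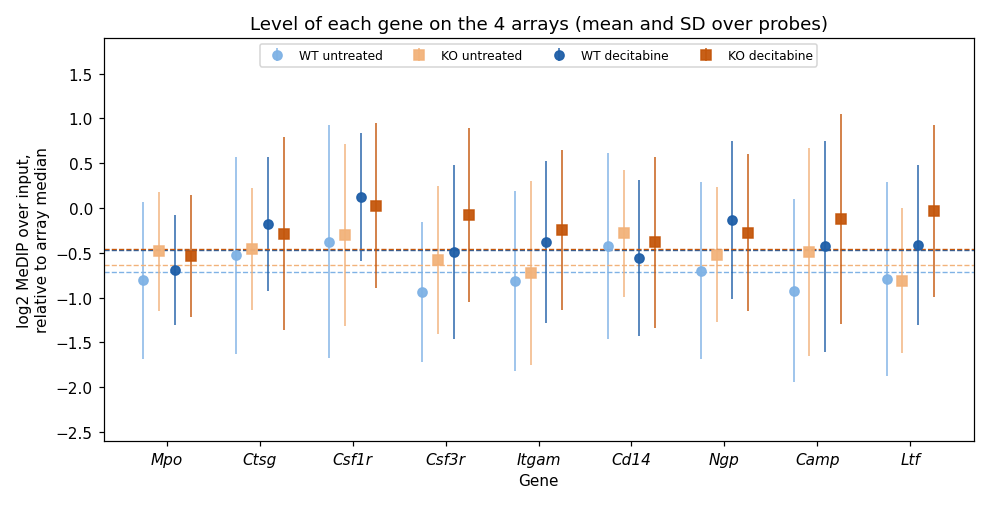
Level of each gene on each array: log2 of MeDIP over input relative to the array median (y axis) for the 9 genes (x axis); points are means and lines the SD over kept probes, and dashed lines are the medians of all genes. On the median-centred scale 8 of the 9 WT decitabine points lie above their untreated WT points, with Cd14 below; all 9 lie below them when arrays are centred on bright probes instead.

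Among the primary granule genes, Mpo, whose product makes hypochlorous acid from hydrogen peroxide, had levels of -0.81 ± 0.88, -0.48 ± 0.66, -0.70 ± 0.61 and -0.54 ± 0.68 (SD over 24 probes). The untreated WT array was the lowest and the other three lay within the spread of the probes. Of its 24 probes 12 were higher and 12 lower with decitabine in WT cells, a mean difference of 0.11, and 9 were higher and 15 lower in KO cells, a mean difference of -0.05. The only Mpo probe bright on every array, in a coding exon at +1800, stood at -2.16, -1.52, -0.57 and 0.04, so that both decitabine arrays lay above both untreated ones. A further coding exon probe at +1599 was bright with decitabine only and read -2.45, -1.73, -0.70 and -0.33. The third bright probe, at +2321, read 0.78, -0.48, -0.05 and -0.04; 8 of the Mpo probes, this one among them, also overlap the annotated gene Gm11505. The highest mean ratio of the gene was that of a UTR probe at +250, which read -0.48, 1.04, 0.17 and 0.30 and was bright on no array.

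Ctsg encodes cathepsin G, a serine protease of the same granules. Its levels were -0.53 ± 1.10, -0.46 ± 0.68, -0.18 ± 0.75 and -0.28 ± 1.08 (SD over 18 probes), and both decitabine arrays lay above both untreated arrays on the median-centred scale. The difference was 0.35 in WT and 0.17 in KO cells, though only 10 and 9 of its 18 probes were higher. All 5 of its bright kept probes lay upstream, between -4682 and -1806. An intron probe at +1063 that failed the filter was bright on the untreated WT array alone and read 4.44, 2.44, 2.72 and 2.62. The probe at -1806, within a run of GT and CG repeats, stood at -1.89, -0.76, 0.50 and 0.77, whereas the probe at -3084 stood at 1.09, 0.49, 0.75 and 0.87 and was highest on the untreated WT array. The probe at -2874, bright on both decitabine arrays, read -1.66, -0.96, -0.35 and 0.40. Those at -3389 and -4682 were bright on the KO decitabine array alone. The first read -0.22, 1.03, 0.74 and 1.66, the highest mean ratio of the gene, and the other 0.12, -0.71, 0.15 and 0.82. Neighbouring probes of the same upstream stretch therefore did not move together.

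Among the secondary granule genes, Ltf, which encodes the iron-binding protein lactoferrin, had levels of -0.79 ± 1.08, -0.81 ± 0.81, -0.42 ± 0.89 and -0.03 ± 0.96 (SD over 12 probes). The untreated arrays differed by -0.02 and the KO decitabine array stood highest. Of its probes, 8 of 12 were higher with decitabine in WT cells, by a mean of 0.38, and 10 of 12 in KO cells, by a mean of 0.78. No Ltf probe was bright on both arrays of either decitabine comparison. The coding exon probe at +1615, bright on both decitabine arrays, read -2.21, -1.20, -0.25 and 0.51. The intron probe at +461 read -1.55, -1.70, -1.57 and 1.69 and was bright on the KO decitabine array alone. The probe at -281 just outside the promoter shown above was bright on the untreated WT array alone, at 0.77, against -0.32, -0.43 and 0.12 on the others. The probe of highest mean ratio, at -392, was bright on no array and read 0.82, 0.39, 1.58 and 1.07.

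Camp encodes the precursor of the antimicrobial cathelicidin peptide. Its levels were -0.92 ± 1.02, -0.49 ± 1.16, -0.43 ± 1.18 and -0.12 ± 1.17 (SD over 17 probes), lowest on the untreated WT array and highest on the KO decitabine array. A cluster of 3 probes between -2637 and -1947 accounted for 3 of its 5 bright probes, all 5 of which were bright on both decitabine arrays and none on the untreated WT array. The Camp probe at -1947 read 0.81, 1.15, 2.70 and 2.60, that at -2315 read -2.74, 0.58, 0.89 and 1.43, and that at -2637 read -0.47, 0.01, 0.59 and 0.18. In each of the 3 the untreated WT array was the lowest and the KO untreated array lay between it and the decitabine arrays. The coding exon probes at +85 and +1057 read -2.86, -3.18, -1.29 and -1.03, and -0.40, -0.34, 0.60 and 0.75, so both decitabine arrays lay above both untreated arrays at each. No kept Camp probe within the promoter printed above was bright on any array.

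Ngp, the cystatin-like neutrophilic granule protein, had levels of -0.70 ± 0.99, -0.52 ± 0.75, -0.14 ± 0.88 and -0.27 ± 0.88 (SD over 17 probes). Both decitabine arrays lay above both untreated ones, by 0.57 in WT cells, where 11 of 17 probes were higher, and by 0.25 in KO cells, where 9 of 17 were. Its only bright probes were far upstream and bright only with decitabine: the probe at -4299 read -2.05, -1.80, -1.08 and -0.47, and that at -4851 read -1.14, -0.99, -0.53 and 1.20. The probe of highest mean ratio, at -2623, read 1.39, 0.26, 0.93 and 0.52 and was bright on no array.

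Among the receptors, Csf1r (chr18:61265226-61291803) is that for macrophage colony-stimulating factor. Its levels were -0.37 ± 1.30, -0.30 ± 1.02, 0.12 ± 0.71 and 0.03 ± 0.92 (SD over 16 probes). With decitabine 11 of 16 probes were higher in WT cells, by a mean of 0.50, and 9 of 16 in KO cells, by a mean of 0.33. Its always-bright intron probe at +1276 stood at -0.15, 0.15, 0.43 and 0.21, lowest on the untreated WT array and highest on the WT decitabine array. A second intron probe, at +1114, read -4.06, -1.57, -0.78 and -0.08 and was bright only with decitabine, and another at +661 read -1.09, -2.20, -0.13 and -0.55 and was bright on the WT decitabine array alone. The upstream probe at -1464 was likewise bright only with decitabine, read 1.38, 1.10, 1.74 and 2.44 and had the highest mean ratio of the Csf1r probes.

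Csf3r is the receptor for granulocyte colony-stimulating factor. Its levels were -0.94 ± 0.78, -0.58 ± 0.83, -0.49 ± 0.97 and -0.08 ± 0.97 (SD over 20 probes), so it was lowest on the untreated WT array and highest on the KO decitabine array. With decitabine 14 of 20 probes were higher in WT cells, by a mean of 0.44, and 13 of 20 in KO cells, by a mean of 0.50. The intron probe at +1990, with no CpG within its window of 500 bases, was bright on every array, at -0.06, -0.19, 0.58 and 0.94. At the far end of the gene a coding exon probe at +18792 read -0.68, 1.01, 1.11 and 1.93 and was bright on all but the untreated WT array. Another at +18104 read -2.48, -1.95, -0.36 and -0.42 and was bright with decitabine only. Upstream, the probe at -4596 read -1.82, -0.62, -0.40 and 0.32, and the probe at -5163 read -0.22, 0.32, 0.06 and 0.34 and was bright in KO cells only, with and without the drug. The highest mean ratio was that of the intron probe at +18564, at 0.57, 0.62, 1.27 and 1.28, which was bright on no array.

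Itgam encodes CD11b, the alpha chain of an integrin that binds complement fragments and adhesion ligands. Its levels were -0.81 ± 1.01, -0.73 ± 1.03, -0.38 ± 0.91 and -0.25 ± 0.89 (SD over 13 probes), and 9 of 13 probes were higher with decitabine in WT cells and likewise in KO cells, by means of 0.44 and 0.48. A single Itgam probe was bright on any array, the intron probe at +378, and it was bright on all 4, at 0.12, 0.45, 0.74 and 0.86.

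Cd14, the co-receptor for bacterial lipopolysaccharide, was the only member below 0 with decitabine in both genotypes on the median-centred scale, while its additive effect was above 0 with normexp correction and from the MeDIP channel alone. Its levels were -0.42 ± 1.04, -0.28 ± 0.71, -0.56 ± 0.87 and -0.38 ± 0.95 (SD over 18 probes), and the difference with decitabine was -0.13 in WT and -0.10 in KO cells on the median-centred scale, with 10 and 11 of 18 probes lower. Cd14 lies at chr18:36884728-36886390. Of its kept probes only that at -2322 was bright, on the WT decitabine array alone, and it ran the other way, at -1.30, 0.05, 0.96 and 1.26. A probe at -1452 that failed the filter was bright on the untreated WT array alone and read 3.44, 3.63, 2.33 and 1.56. The kept probe of highest mean ratio, at +241, read 1.88, 1.07, 0.53 and 0.75. In KO cells no Cd14 probe was bright, so the KO difference is between signals not well above background.

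**Figure D2:**
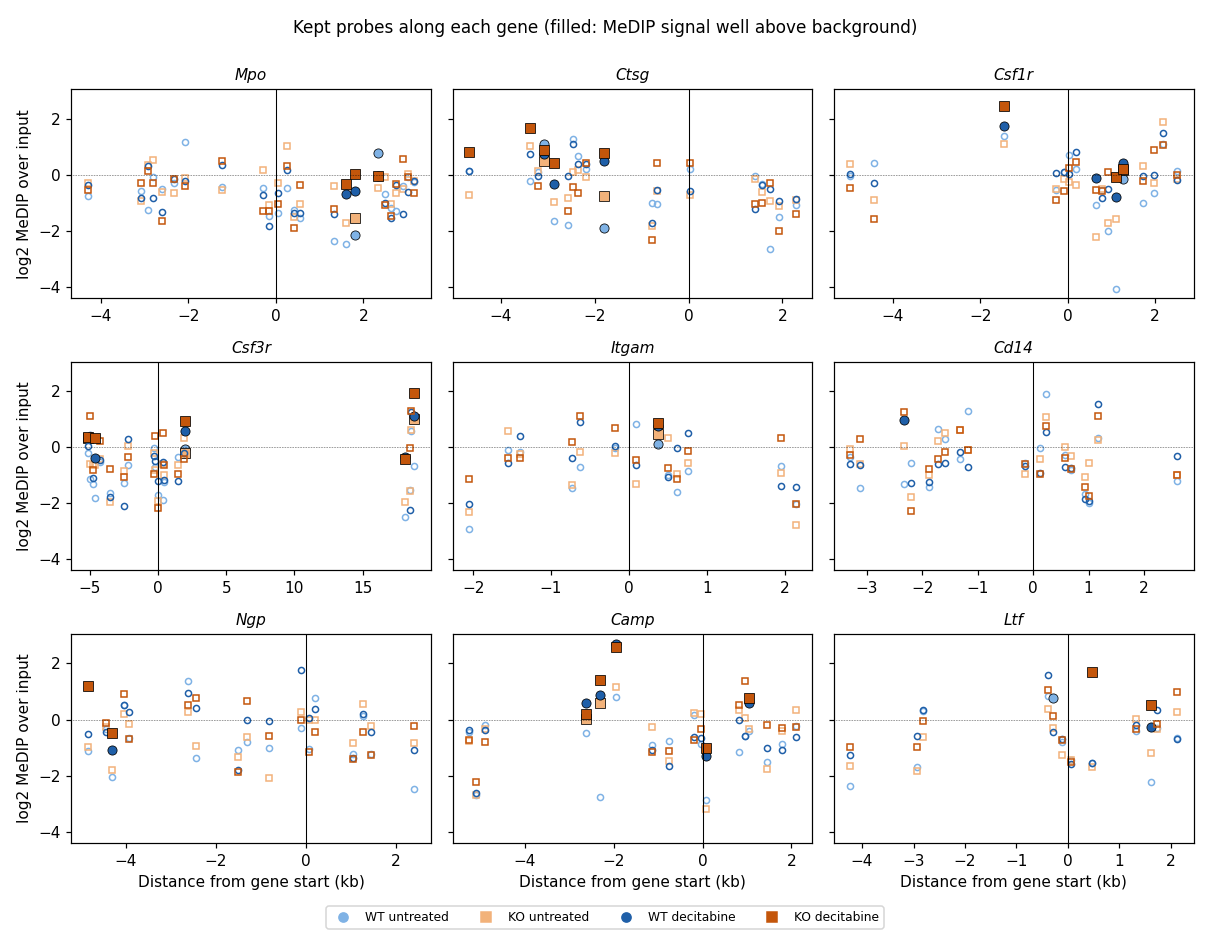
Log2 ratio of MeDIP over input (y axis) of each kept probe against its distance from the gene start in kb (x axis, negative upstream; each gene has its own scale), 1 symbol per array, filled where the MeDIP signal was well above background. Bright probes are few: 5 in Ctsg, all upstream, 5 in Camp with 3 between -2637 and -1947 bases, and 1 each in Itgam and Cd14.

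Decitabine and untreated cells of 1 genotype were compared over 2 arrays each, which allows no test. In WT cells 8 of the 9 genes were higher with decitabine on the median-centred scale, with a median of 0.44 and a range from -0.13 to 0.57, where 80.2% of all genes were above 0 with a median of 0.25. In KO cells 7 of 9 were higher, with a median of 0.33 and a range from -0.10 to 0.78, where 76.5% of all genes were above 0 with a median of 0.21. Among the 7747 genes mostly in CpG-poor windows (at least 80% of kept probes) 71.5% were above 0 in WT and 65.6% in KO cells. Their medians were 0.19 and 0.12. None of the 9 was called, a call being at least a 2-fold difference with at least 80% of the probes in its direction. Over all 17034 genes 1.07% were called higher and 0.0117% lower in WT cells, and 0.757% higher and 0.00587% lower in KO cells. A change counts as measured on both sides where each array had at least 1 bright probe of the gene, while its fold is over all kept probes. The largest such change was that of Csf3r in KO cells, 1.42-fold, with 3 of 20 probes bright on both arrays. Csf1r in WT cells followed at 1.41-fold, with 1 of 16. These folds thus rest mostly on probes not well above background on both arrays. For Cd14, Ngp and Camp in WT cells, and Ngp and Ltf in KO cells, 1 of the arrays had no bright probe and the bound gave no fold.

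These directions hold relative to the array median only: centred on the probes bright on all arrays, all 9 genes were lower with decitabine in both genotypes (medians -0.17 in WT and -0.54 in KO cells), and with loess 4 of 9 in WT and 2 of 9 in KO cells were higher. Of all genes 11.7% and 1.78% were above 0 with bright-probe centring, and 29.1% and 23.7% with loess. Because another centring moved the median of all genes, from 0.25 to -0.35 in WT and from 0.21 to -0.66 in KO cells, changes were also set against it. The median of the 9 genes exceeded that of all genes by 0.19 in WT and 0.12 in KO cells, which bright-probe centring cannot change because it shifts every gene equally, and by 0.06 in both with loess. It fell below it, by -0.12 in WT and -0.02 in KO cells, when only the probes bright on at least 1 array were used, by -0.03 in WT cells when probes were summarised by their median, and by -0.0079 in KO cells with normexp correction.

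**Figure D3:**
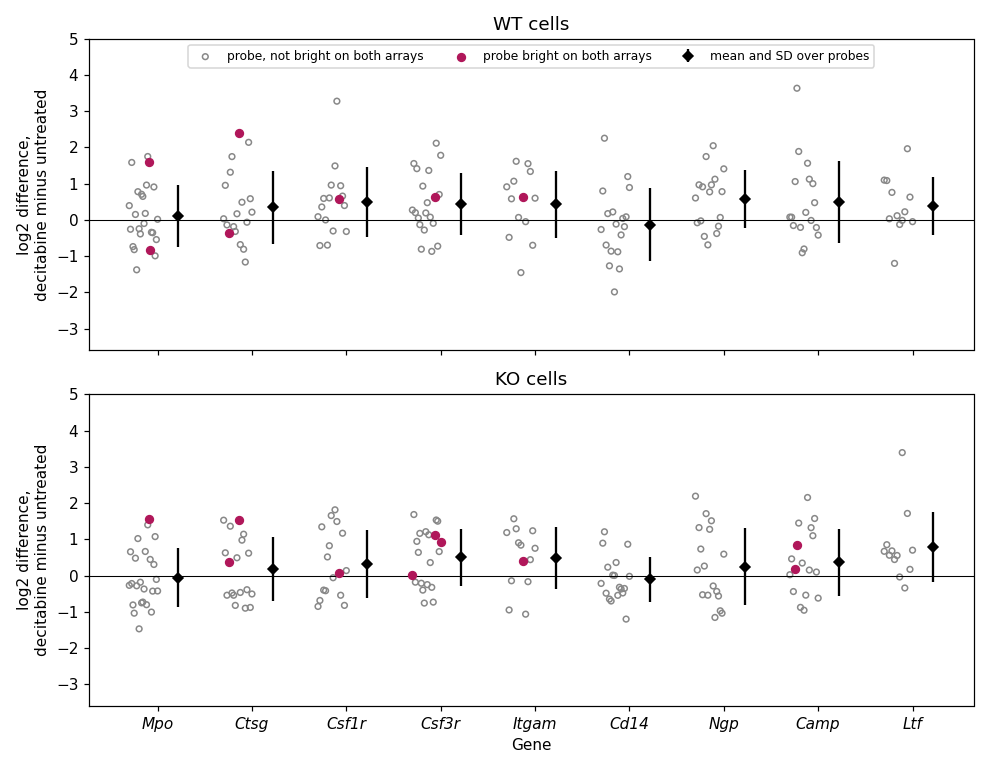
Difference in log2 ratio, decitabine minus untreated (y axis), of each kept probe of the 9 genes (x axis) in WT cells (top) and KO cells (bottom); filled circles are bright on both arrays, diamonds and lines are the mean and SD over probes. Probes scatter on both sides of 0 in every gene on the median-centred scale, and the SD, at least 0.62, exceeds the size of every mean; centring on bright probes would place all 9 means below 0.

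An additive model over the 4 arrays, with decitabine and genotype as terms, was fitted with limma across all 17034 genes. Its only residual degree of freedom is the difference between the decitabine changes of the 2 genotypes, so its error holds no spread between cultures. The eBayes step drew this error toward a value shared over all genes, with 12.4 prior degrees of freedom beside 1 residual one. The SEs and p-values thus rest mostly on departures from additivity over all genes, and little on those of the gene itself. On the median-centred scale 32.7% of all genes passed as higher with decitabine (limma, Benjamini-Hochberg adjusted p under 0.05) and 2.1% as lower. Of the 7747 genes mostly in CpG-poor windows 1893 passed as higher and 328 as lower. Among the 9 genes described here 6 passed as higher and 0 as lower. Those 6 were Ltf at 0.58 ± 0.13 (SE; adjusted p = 0.00687), Csf3r at 0.47 ± 0.12 (adjusted p = 0.0116), Itgam at 0.46 ± 0.12 (adjusted p = 0.0131), Camp at 0.43 ± 0.12 (adjusted p = 0.0181), Csf1r at 0.41 ± 0.12 (adjusted p = 0.0228) and Ngp at 0.41 ± 0.13 (adjusted p = 0.0283). The 6 hold the secondary granule genes and the 3 receptor and integrin genes. Both primary granule genes missed the threshold, Ctsg at 0.26 (adjusted p = 0.113) and Mpo at 0.03 (adjusted p = 0.870), and so did Cd14 at -0.12 (adjusted p = 0.468). Whether the groups of genes differ from each other was not tested. No member passed as higher from the deposited log ratio, with the median over probes, with loess or with bright-probe centring. The last put all 9 below 0 and left Mpo, Ctsg and Cd14 past the threshold as lower, where 9690 of 17034 genes were. Without a probe filter Csf3r passed as higher and Cd14 as lower, where 2716 and 961 of 17310 genes did. With normexp correction 4 of the 6 passed, without Csf1r and Ngp, where 3727 of 17034 genes passed as higher. From the MeDIP channel alone all 6 passed together with Ctsg, but so did most genes of the array, 14184 of 17034. Over the settings other than bright-probe centring, Itgam and Ngp were above the median of all genes in 8 of 8, Csf3r and Csf1r in 8 of 9, Camp and Ltf in 7 of 9, Ctsg in 5 of 9, Mpo in 1 of 9 and Cd14 in 0 of 8.

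**Figure D4:**
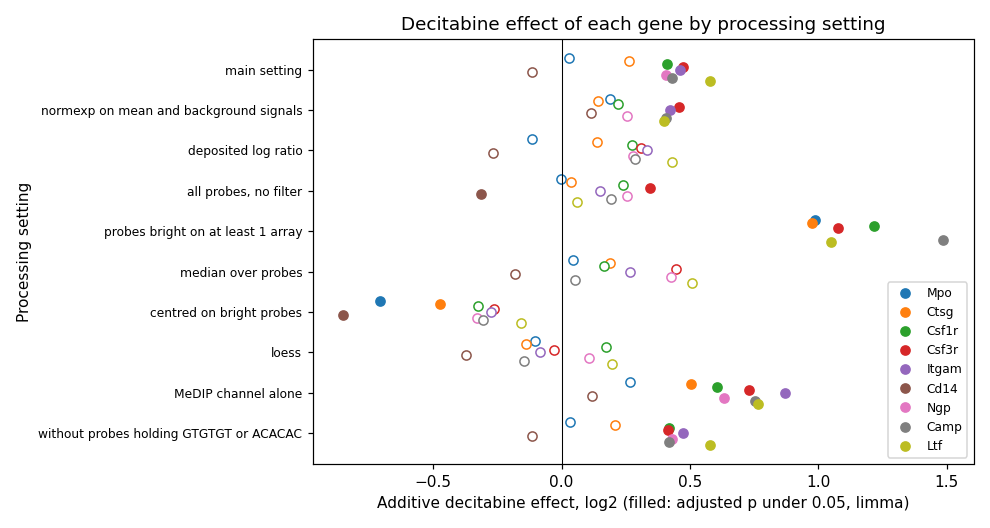
Additive decitabine effect on the log2 scale (x axis) of each of the 9 genes under the main setting and 9 alternatives (y axis), filled where the adjusted p (limma) is under 0.05. In the main setting 8 genes lie above 0 and 6 are filled; centred on bright probes all 9 lie below 0, and with loess 3 lie above 0.

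The number of bright probes also differed between the treatments, on the whole array and in these genes. Over all spots of an array 2.73% and 2.69% were bright in the untreated and 9.34% and 10.7% in the decitabine WT and KO samples. Of the 155 kept member probes 5.16%, 6.45%, 14.8% and 16.8% were bright on the 4 arrays (8, 10, 23 and 26 probes), beside 4.08%, 4.09%, 14.2% and 16.1% of all kept probes and 4.05%, 3.75%, 13.1% and 15.0% of kept probes in CpG-poor windows. The scanner software had replaced the MeDIP signal by a surrogate value at 61.3%, 56.1%, 32.9% and 33.5% of the member probes. A higher level on the decitabine arrays thus went with fewer surrogate values there, and the part of this in the differences was not tested. By presence rather than level, 11 member probes (7.10%) were bright on both decitabine arrays only, against 6.03% of kept CpG-poor probes and 6.87% of all kept probes, and 0 on both untreated arrays only, against 0.00183% of all kept probes. Bright on at least 1 decitabine array and on no untreated array were 17 (11%), against 12.4% of kept CpG-poor and 13.3% of all kept probes.

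**Figure D5:**
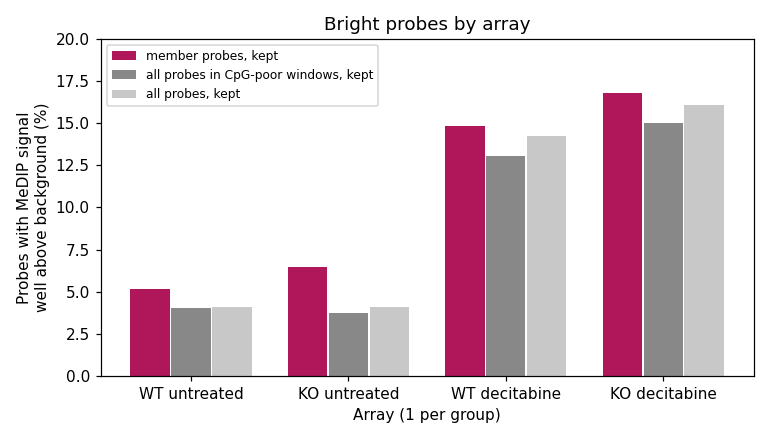
Share of probes whose MeDIP signal was well above background (y axis, %) on each of the 4 arrays (x axis, 1 array a group), for the 155 kept member probes, all kept probes in CpG-poor windows and all kept probes. The member bars are at 5.16%, 6.45%, 14.8% and 16.8%, beside 4.08%, 4.09%, 14.2% and 16.1% for all kept probes. Those in CpG-poor windows are at 4.05%, 3.75%, 13.1% and 15.0%. Whether the sets differ was not tested.

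Over the 6 member probes bright on every array, which need no surrogate value, 5 were higher with decitabine in WT cells (median 0.63, range -0.35 to 2.39) and 6 in KO cells (median 0.77, range 0.06 to 1.57). Over all 8687 such probes 82.3% were higher in WT cells, with a median of 0.77, and 93.4% in KO cells, with a median of 0.93. These shares too are relative to the array median, and centring on bright probes shifts every difference by -0.60 in WT and -0.87 in KO cells. The 29 member probes bright on at least 1 array had more CpG around them than the 126 that were bright on none, a median of 7 against 5.5 in the window of 500 bases, and a higher input signal, 2.29 against 0.48 above the array median on the untreated WT array. By CpG in the window, 5.36% of the 56 probes with 0 to 4 CpG were bright on the KO decitabine array, 21.8% of the 55 with 5 to 8 and 25% of the 44 with 9 or more, beside 9.96%, 17.9% and 20.1% of all kept CpG-poor probes. On the untreated WT array the member shares were 3.57%, 7.27% and 4.55%.

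KO and WT cells were compared at each treatment over the same arrays as above, so these comparisons share arrays with the decitabine comparisons. Without treatment 8 of the 9 genes were higher in KO cells on the median-centred scale, with a median of 0.14 beside 0.08 over all genes, and Ltf was at -0.02. With decitabine 6 of 9 were higher, with a median of 0.16 beside 0.03, and Ctsg, Csf1r and Ngp were lower, at -0.11, -0.09 and -0.14. None was called at 2-fold: over all genes 0.17% were called higher and 0.0704% lower without treatment, and 0.276% higher and 0.0352% lower with decitabine. With loess 2 of 9 genes were higher without treatment and 3 of 9 with decitabine, with bright-probe centring 8 of 9 and 3 of 9, and from the MeDIP channel alone 3 of 9 and 6 of 9. Of all genes 62.6% were higher in KO cells without treatment and 54.9% with decitabine on the median-centred scale, 31.3% and 25.9% with loess, 59.2% and 14.5% with bright-probe centring, and 52.1% and 52.9% from the MeDIP channel alone. Among the 7747 genes mostly in CpG-poor windows 58.0% and 45.9% were higher on the median-centred scale. Their medians were 0.05 and -0.02.

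Csf3r and Camp had the largest differences by genotype in the additive model. Csf3r was higher in KO cells by 0.36 without treatment, with 13 of 20 probes higher, and by 0.42 with decitabine, with 15 of 20. Camp was higher by 0.43, with 12 of 17 probes higher, and by 0.31, with 11 of 17. In the additive limma model 0 of the 9 genes passed for genotype, where 2.85% of all genes passed as higher and 1.67% as lower. The counts were 70 and 190 among the 7747 genes mostly in CpG-poor windows. At an unadjusted p under 0.05 there were 2 members, Csf3r at 0.39 ± 0.12 (SE; adjusted p = 0.0846) and Camp at 0.37 ± 0.12 (adjusted p = 0.0974). Csf3r passed after adjustment with normexp background correction, where 2080 of 17034 genes passed as higher. Over the settings other than bright-probe centring, which cannot change this, the genotype difference lay above the median of all genes in 9 of 9 for Csf3r (by 0.21 to 0.32), Camp (by 0.06 to 0.35) and Ltf (by 0.0041 to 0.35). It did so in 7 of 9 for Mpo, 5 of 8 for Cd14, 4 of 9 for Ctsg, 3 of 8 for Itgam and Ngp, and 1 of 9 for Csf1r.

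Other genes of the same or related functions were taken from lists of primary granule, secondary and tertiary granule, and myeloid surface genes, of which 51 of 64 symbols were measured. In the additive limma model on the median-centred scale 9 of the 51 passed as higher with decitabine and 3 as lower, where 32.7% and 2.1% of all genes did, with a median of 0.08 beside 0.23 over all genes. Of the 7747 genes with at least 80% of kept probes in CpG-poor windows 1893 passed as higher and 328 as lower. Their median was 0.16. The primary granule list gave 1 of 7 higher, the protease inhibitor gene Serpinb1a at 0.61 (adjusted p = 0.00433), and 1 lower, the lysozyme gene Lyz2 at -0.35 (adjusted p = 0.0461). The secondary and tertiary granule genes gave 3 of 15 higher, Lcn2 at 0.57, Pglyrp1 at 0.50 and the oxidase subunit gene Cyba at 0.34, and 1 lower, the oxidase subunit gene Cybb at -0.42. The surface genes gave 5 of 29 higher, among them the mannose receptor gene Mrc1 at 0.68 and the formyl peptide receptor gene Fpr2 at 0.55, and 1 lower, the Toll-like receptor gene Tlr2 at -0.51. Genes of the same list, and Cyba and Cybb of the same enzyme, therefore took opposite directions on this scale. Bright on the 4 arrays were 0, 0, 1 and 2 of 18 probes for Cyba, and none of 9 for Cybb. Tlr2 had none of 4, Lyz2 0, 0, 1 and 1 of 9, and Serpinb1a 0, 0, 1 and 2 of 9. Lcn2 had more, 1, 2, 7 and 6 of 20, as did Mrc1, with 1, 3, 5 and 6 of 18. These differences thus rest mostly on signals not well above background. With bright-probe centring 41 of all genes passed as higher and 9690 as lower.

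Genes for transcription factors of the myeloid lineage passed as higher with decitabine in 8 of 12 cases and as lower in 0 (median 0.43 on the median-centred scale), beside the same 32.7% and 2.1% of all genes. Among them were Sfpi1, which encodes PU.1, at 0.50 (adjusted p = 0.00869), Klf4 at 0.63 (adjusted p = 0.00304) and Myb at 0.65 (adjusted p = 0.00263). By genotype 1 of the 12 passed, Cebpd, higher in KO cells by 0.60 (adjusted p = 0.0195), and 0 of the 51 other granule and surface genes did, where 2.85% of all genes passed as higher. The labelled cell type could not be checked by expression markers on DNA arrays. As lists of promoters, B cell markers gave 6 of 7 higher with decitabine, T cell markers 3 of 8 and erythroid markers 1 of 3, with 0 lower in each, beside 32.7% of all genes higher and 2.1% lower.

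Genes outside the set with the most similar profile over the 4 arrays were sought among 15116 genes with at least 5 kept probes, by Euclidean distance to the median profile of the 9 genes. The closest were Inpp5b at 0.03, Eno1 at 0.03 and Bcat2 at 0.05, whereas the members themselves lay between 0.18 (Camp) and 0.76 (Csf1r). Within the median distance of the members lay 2555 of the 15116 genes.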

How the data were processed

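Genomic DNA of 4 samples, 1 per group, was enriched for methylated DNA and amplified together with its input, per the labels' protocols, and hybridised with Cy3 as MeDIP and Cy5 as input on every array. Dyes were not swapped, and each array lies on its own slide, so neither dye and enrichment nor group and slide can be told apart. The labels do not say whether samples came from separate cultures. With 1 array a group the p-values rest on departure from additivity, moderated over all genes, and on no spread between replicate samples. The authors deposited spot intensities on a linear scale, from Agilent Feature Extraction (version 10.5 in the submitters' processing notes, 10.5.1.1 per the file headers). They were background-subtracted and dye-normalized, with surrogate values for signals near background. The authors also deposited a log10 log ratio of Cy5 over Cy3, and a value table on the log2 scale. Of 357054 entries of that table with at least 3 non-zero values 99.988% equalled the log ratio, sign turned, to 3 decimals, and its medians were 0, 0, 0 and -0.14; its scale and direction (MeDIP over input) thus follow, it is not centred, and its identifiers match no probe column, so it named no gene.

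The log2 ratio of the processed signals was averaged over the spots of a probe and centred on the array median. The filter asked on all 4 arrays for an input signal well above background and no outlier flag for non-uniformity, and 328399 of 520554 probes (63.1%) passed. Genes are means over at least 3 kept probes. All 232 member probes matched the mm9 genome, the build of the file headers, exactly. limma 3.58.1 in R 4.3.3 fitted an additive model (lmFit, eBayes) with Benjamini-Hochberg adjustment over 17034 genes, and was tested on simulated data. The number of arrays limits the precision. The 9 members and all gene lists were chosen with earlier results of these data known. All members are named, along with each kept bright probe and the kept probe of highest mean ratio of each gene. Older symbols were used where the array has them (Ela2, Sfpi1); 13 of the 64 listed granule and surface genes were not measured here. Alternatives were normexp background correction (offset 50), the deposited log ratio, no probe filter, only probes bright on at least 1 array, the median over probes, centring on bright probes, loess, the MeDIP channel alone, and leaving out probes with GTGTGT or ACACAC.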

Additional observations from a re-analysis of the deposited data

Results flagged for a closer look

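In some genes the 2 arrays of 1 contrast differed in opposite directions in the 2 genotypes or treatments on the median-centred scale. These differences between differences were not tested, since each rests on 1 array a group. The change of Mpo with decitabine was 0.11 in WT and -0.05 in KO cells, a difference of -0.17. Centred on bright probes Mpo was lower with decitabine in both genotypes. That centring shifts every decitabine change by -0.60 in WT and -0.87 in KO cells, so all differences given here move with it. On the median-centred scale the other genes were as follows. The KO minus WT difference of Ngp was 0.18 without treatment and -0.14 with decitabine, a difference of -0.32. That of Ctsg was 0.07 and -0.11, a difference of -0.18, and that of Csf1r was 0.07 and -0.09, a difference of -0.17. That of Ltf ran the other way, at -0.02 without treatment and 0.39 with decitabine, a difference of 0.40. The SD of each of these over the probes of the gene was at least 0.91. Among all 17034 genes the Ltf value lay at the 95.1 percentile and the Ngp value at the 14.6 percentile.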

How the results depend on the processing

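No paired analysis was possible because each group has 1 array, and for the same reason no replicate could be left out. The median of the 9 genes for decitabine in WT cells (0.44) was 1.06 over the 6 genes measured by probes bright on at least 1 array (3 called at 2-fold, where 5454 of 9612 genes were called higher and the median of all genes was 1.18), 0.13 with the median over probes, -0.17 centred on bright probes, -0.082 with loess and 0.67 from the MeDIP channel alone. In KO cells (0.33) it was 0.033 from the deposited log ratio, 1.14 over bright probes (5 called, where 6088 of 9612 genes were called higher and the median of all genes was 1.16), -0.54 centred on bright probes, -0.086 with loess, 0.062 without a filter, 0.15 with normexp, 0.19 with the median over probes and 0.59 from the MeDIP channel alone. For KO minus WT without treatment (0.14) it was 0.34 with normexp, 0.34 over bright probes, -0.069 with loess, -0.028 from the MeDIP channel alone and 0.28 from the log ratio. With decitabine (0.16) it was 0.38 over bright probes (1 called, where 416 of 9612 genes were called higher and the median of all genes was 0.36), -0.13 centred on them, -0.047 with loess, 0.028 from the log ratio, 0.075 without a filter, 0.24 with the median over probes and 0.099 from the MeDIP channel alone. Past the limma threshold for decitabine were 6 genes, all higher. In either direction, 0 passed from the deposited log ratio, 0 with the median over probes and 0 with loess. Without a probe filter 2 passed, Csf3r as higher and Cd14 as lower. Centred on bright probes 3 passed, all as lower and none of them among the 6 (Mpo, Ctsg and Cd14). The 0 for genotype became 1 with normexp, where 2080 of 17034 genes passed as higher. The share of bright member probes with decitabine was 9.91% in WT and 11.2% in KO cells over all probes.

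Additive decitabine effects that changed sign were those of Cd14 with normexp (0.12) and from the MeDIP channel alone (0.12), and of Mpo from the log ratio (-0.11) and without a filter (-0.00074). Centred on bright probes, Mpo was at -0.71, Ctsg -0.47, Csf1r -0.33, Csf3r -0.26, Itgam -0.28, Ngp -0.33, Camp -0.31 and Ltf -0.16; with loess, Mpo was at -0.10, Ctsg -0.14, Csf3r -0.032, Itgam -0.084 and Camp -0.15. For genotype, Ctsg and Csf1r were at 0.26 and 0.16 with normexp, 0.034 and 0.041 from the log ratio, and 0.44 and 0.27 over bright probes, and Csf1r at 0.012 without a filter. Centred on bright probes Itgam was at -0.050, Cd14 -0.0011 and Ngp -0.14; with loess Mpo was at -0.030, Itgam -0.27, Cd14 -0.22, Ngp -0.24 and Ltf -0.12; from the MeDIP channel Mpo was at -0.035, Ctsg 0.11, Itgam -0.024, Cd14 -0.058 and Ngp -0.13. Over all genes the decitabine calls, 5577 higher and 358 lower, became 3727 and 42 with normexp, 135 and 8 from the log ratio, 2716 and 961 without a filter, 9044 and 2 of 9612 over bright probes, 803 and 45 with the median over probes, 41 and 9690 centred on bright probes, 57 and 797 with loess, and 14184 and 9 from the MeDIP channel. Those for genotype, 485 and 284, became 2080 and 38 with normexp, 69 and 6 from the log ratio, 1458 and 1651 without a filter, 539 and 9 over bright probes, 26 and 6 with the median over probes, 45 and 115 centred on bright probes, 50 and 514 with loess, and 40 and 13 from the MeDIP channel. The exclusion of probes with GTGTGT or ACACAC, chosen after seeing the data, left 6 members past the threshold for decitabine and 0 for genotype. Of all 17005 genes 5247 passed as higher and 378 as lower for decitabine there, and 568 and 321 for genotype. The centring alternative shifts every gene of an array equally, which by construction gives its signs; the cause of the other changes was not tested. At most 26 of the 155 kept member probes had a MeDIP signal well above background on any array, and this limits every value above.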
